A study of Arabidopsis thaliana with 18 samples.

Results

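The response of rlk7-3 roots to the peptide TOLS2 was read from 6 of the 18 arrays of the series, the 3 arrays titled rlk7-3 with TOLS2 set against the 3 titled rlk7-3 control. A gene entered when the platform table gave exactly 1 gene for its row. This left 16548 genes, with the brightest row kept for a gene with several rows and rows of identical values counted once. The fit and its adjustment ran over 17481 rows, which also take in those with several genes.

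All seedlings were Arabidopsis thaliana, grown for 5 days in continuous light and moved for 3 h to medium with 1 µM TOLS2 or without it. About 80 root tips of 1 cm were pooled for each array. Besides rlk7-3, wild-type seedlings and seedlings labelled puchi-2 were measured in the same way, each as 3 control and 3 TOLS2 arrays. The labels call the arrays of a group biological replicates and describe neither the rlk7-3 lesion nor the puchi-2 lesion. The RLK7 transcript was not analysed here, since no row carries its name, and the genotype of the rlk7-3 arrays has no check from the targeted gene. The PUCHI level was 5.04, 5.45 and 5.44 on control arrays labelled puchi-2 and 4.68, 4.15 and 4.85 on wild-type controls, so it was not lower under that label. In pooled tips, fewer cells of a type and less RNA per cell cannot be told apart.

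TOLS2 is a small secreted peptide that holds back the founding of lateral roots, and RLK7 is the leucine-rich-repeat receptor kinase through which it is known to act. PUCHI is an AP2/ERF transcription factor of lateral root founder cells. Glutathione transferases of the tau class (GSTU) join glutathione to reactive or foreign compounds, and UDP-glycosyltransferases (UGT) join sugars to small molecules such as flavonols, hormones and xenobiotics. Both are known in Arabidopsis for chemical stress and detoxification. The comparison asks which transcripts still changed without the receptor kinase, and in which gene functions.

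Correlations among the 6 rlk7-3 arrays were at least 0.984. The second principal component of all 18 arrays (12.5% of the variance) was higher on replicate 1 arrays than on the rest of each group, rlk7-3 included, so results are also given without them. Calls below are those of the main fit, which held no term for the replicate number. A fit with that number as a block called 16 rows in rlk7-3 (11 higher, 5 lower), described in the closing section. The median of tested rows was 6.01 to 6.06 on rlk7-3 control arrays and 6.04 to 6.12 on rlk7-3 TOLS2 arrays (log2 level). Across all tested rows the median change was 0.06 in rlk7-3, against −0.04 in wild type. Small positive changes in rlk7-3 are therefore read against that shift, and against values after each array was quantile normalized again or centred on its median.

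One gene passed the test in rlk7-3. GSTU25 (AT1G17180), a tau-class glutathione transferase, had log2 levels of 6.98, 6.78 and 6.74 on the rlk7-3 control arrays and 7.80, 7.62 and 7.55 with TOLS2. The lowest TOLS2 array lay above the highest control array; such a lack of overlap, in either direction, was found for 12.2% of tested rows. GSTU25 rose 1.78-fold (log2 change 0.83, SE 0.11, 95% interval 0.59 to 1.07, n = 3, limma adjusted p = 0.0493). It was the only call among the tested rows, or 0.00572% of them. At an unadjusted p under 0.05 there were 1255 rows (7.18%), 1069 higher (6.12%) and 186 lower (1.06%).

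The GSTU25 rise was smaller in rlk7-3 than in wild type. Wild-type control arrays read 6.92, 6.60 and 6.53, and TOLS2 arrays 8.65, 8.41 and 8.38, a change of 1.79. Arrays labelled puchi-2 gave 1.77. The rlk7-3 response was below that of wild type by 0.97 on the log2 scale (95% interval of the difference −1.31 to −0.62, limma adjusted p = 0.013). The control arrays of rlk7-3 and wild type overlapped, and the TOLS2 arrays did not. The rlk7-3 call sat at the threshold. Its adjusted p (limma, Benjamini-Hochberg) was 0.0783 after renewed quantile normalization, 0.0907 after centring and 0.459 from the 6 rlk7-3 arrays alone, and it held when 1 rlk7-3 array was left out only for TOLS2 replicate 3 (0.0438, otherwise 0.0726 to 0.122). Without the replicate 1 arrays the change was again 0.83, with an adjusted p of 0.216.

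The next 2 genes had like functions and missed the threshold narrowly. GSTU22 (AT1G78340), a second tau-class transferase, read 7.87, 8.02 and 7.94 in rlk7-3 controls and 8.76, 8.62 and 8.48 with TOLS2. It was higher by 0.67 with no overlap of arrays, and was not called (SE 0.10, 1.59-fold, limma adjusted p = 0.0555). Wild type and the arrays labelled puchi-2, which share no array with this comparison, gave rises of 0.72 (adjusted p = 0.0013) and 0.69 (adjusted p = 0.00215). The rlk7-3 and wild-type responses of GSTU22 differed by −0.04, with a 95% interval of −0.35 to 0.26. The interval is too wide to call the responses equal.

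UGT73B5 (AT2G15480) belongs to a subfamily of glycosyltransferases known for flavonols and for responses to oxidative stress and pathogens. Its levels were 7.46, 7.71 and 7.56 in rlk7-3 controls and 8.29, 8.19 and 8.30 with TOLS2. The groups lay apart, the change was 0.68 (SE 0.10, 1.61-fold) and the adjusted p was 0.0555. In wild type it rose by 0.74 (adjusted p = 0.00104) and in arrays labelled puchi-2 by 0.57 (adjusted p = 0.00964). The rlk7-3 response minus that of wild type came to −0.05 (95% interval −0.36 to 0.26). Leaving out the replicate 1 arrays gave rlk7-3 changes of 0.56 for GSTU22 and 0.61 for UGT73B5.

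**Figure D1:**
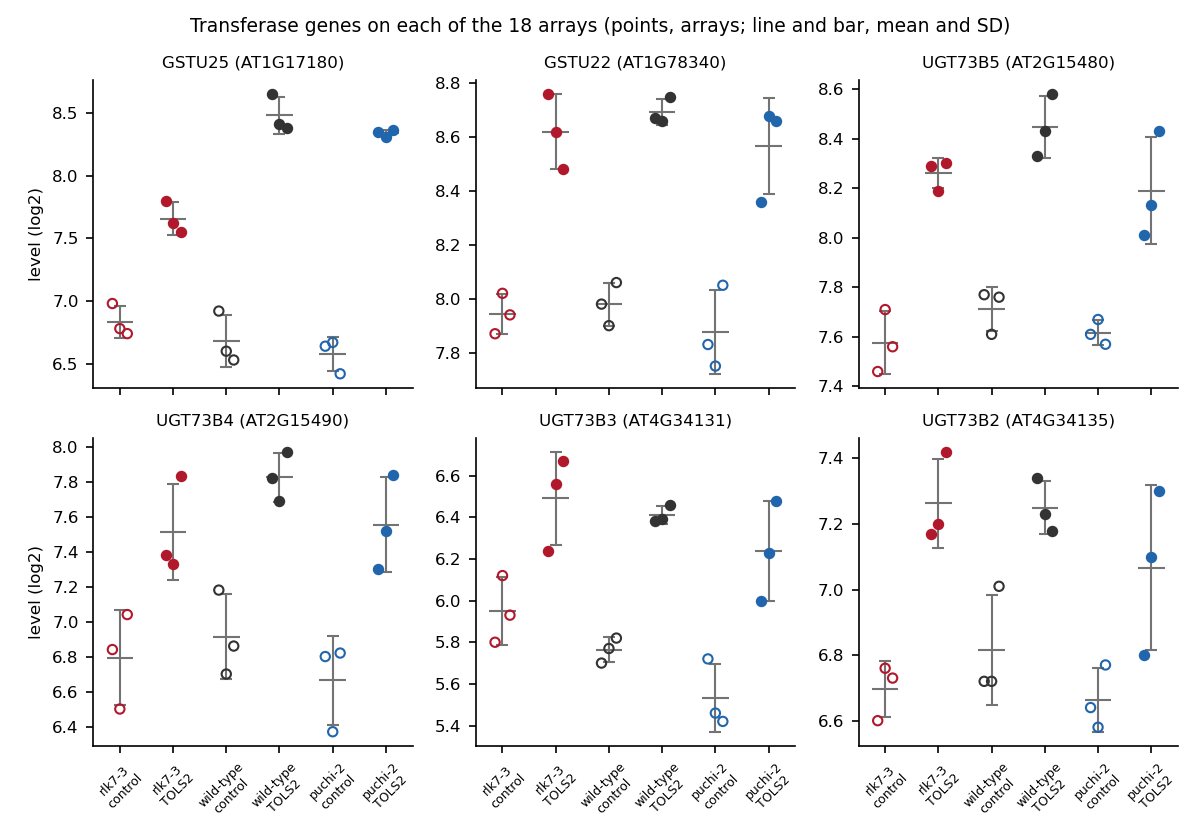
Level (log2) of 6 transferase genes on each of the 18 arrays, by genotype and treatment, with open points for control, filled points for TOLS2, and the mean with its SD over 3 arrays in grey. In rlk7-3 the TOLS2 arrays lie above the control arrays for all 6 genes, and with TOLS2 GSTU25 lies lower in rlk7-3 (7.55 to 7.80) than in wild type (8.38 to 8.65).

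The other UGT73B genes lay the same way. UGT73B4 (AT2G15490) read 6.84, 6.5 and 7.04 in rlk7-3 controls and 7.38, 7.33 and 7.83 with TOLS2, a change of 0.72 (adjusted p = 0.284), beside rises of 0.91 in wild type and 0.89 in arrays labelled puchi-2. UGT73B3 (AT4G34131) was higher by 0.53, with rises of 0.64 and 0.70 in those genotypes. UGT73B2 (AT4G34135), a flavonoid glucosyltransferase, was higher by 0.57 and was not called in wild type (0.43, adjusted p = 0.0902).

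The arrays of these 3 genes did not overlap in rlk7-3. UGT73B1 (AT4G34138) was the exception: its 6 arrays overlapped (change 0.33, 95% interval −0.21 to 0.88). Of the 5 UGT73B genes, 4 were higher at an unadjusted p under 0.05 in rlk7-3, beside 6.17% of all genes, and none was called after adjustment. The count was again 4 of 5 after either rescaling and without the replicate 1 arrays. Over all genes the share higher was 2.86% after quantile normalization, 3.26% after centring and 4.0% without those arrays. The median change of the 5 UGT73B genes was 0.57, or 0.52 after rescaling. The subfamily was singled out after the value of UGT73B5 was seen, so this count is a description. UGT73B5 and UGT73B4 are direct neighbours on the chromosome, as are UGT73B3 and UGT73B2, and their sequences are alike, so the probes of one may read the transcript of the other.

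Gene lists were filled by symbol or synonym, so family members known by locus number alone can be missing from the counts that follow. Of 15 glutathione transferase genes, GSTU25 and GSTU22 were the 2 with an unadjusted p under 0.05 (13.3%, beside 6.17% higher and 1.06% lower over all genes), both already described as the leading genes. The other 13 had changes of −0.12 to 0.12, among them GSTU23, GSTU21 and GSTU20, which lie beside GSTU22 on the chromosome (−0.12, 0.12 and 0.11), and GSTU26, which lies beside GSTU25 (−0.11). The list's median was 0.06, equal to that of all genes, and −0.00 and 0.01 after the 2 rescalings.

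Of 55 UDP-glycosyltransferase genes matched by symbol or synonym, 9 were higher and 0 lower at an unadjusted p under 0.05. This was a share of 16.4% beside 6.17% higher and 1.06% lower over all genes. It takes in 4 UGT73B genes already described, while 5 of the other 50 were higher. The list was chosen with earlier results of these data known, so the share is a description. Apart from UGT73B the 5 were UGT87A2, UGT74D1, UGT73C6, UGT78D3 and GT72B1. UGT87A2 (AT2G30140), known for a part in flowering time, was higher by 0.43 in rlk7-3 and rose by 1.14 in wild type; the difference of −0.71 was not called (adjusted p = 0.134). UGT74D1 (AT2G31750), which glucosylates auxin and its oxidised form, was higher by 0.39 and showed 0.06 in wild type. Without UGT73B the list's median was 0.09. After quantile normalization 9 of the 55 were higher and 2 lower at that p, beside 2.86% and 2.44% of all genes. After centring 7 were higher and 2 lower, beside 3.26% and 1.96%. Without the replicate 1 arrays 8 were higher and 1 lower, beside 4.0% and 1.76%.

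A further 4 loci, which the annotation used here names by number only, were higher in all 3 genotypes, with calls in wild type and in arrays labelled puchi-2. AT4G13180, a bright row, read 10.61, 10.62 and 10.49 in rlk7-3 controls and 11.04, 10.91 and 11.01 with TOLS2. The change was 0.41 with no overlap (adjusted p = 0.113), beside called rises of 0.50 in wild type and 0.63 in arrays labelled puchi-2. AT5G51440 read 6.56, 6.10 and 5.97 and then 7.19, 7.12 and 6.93 (change 0.87, adjusted p = 0.255). It rose by 1.13 and 1.1 in the other genotypes, and of the genes with wild-type rises of 2-fold or more it kept the largest share of the change, 77.0%.

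AT5G14730 was higher by 0.67 in rlk7-3 (adjusted p = 0.113), with rises of 0.80 and 0.53. AT2G38823 was higher by 0.78 (adjusted p = 0.271), with rises of 0.83 and 0.97. Neither had overlapping rlk7-3 arrays. Without the replicate 1 arrays the rlk7-3 changes of the 4 loci were 0.40, 0.99, 0.68 and 0.69, and the wild-type calls of AT5G14730 and AT2G38823 were lost, as were those of AT5G51440, AT5G14730 and AT2G38823 in arrays labelled puchi-2.

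Fewer genes were lower than higher, and the largest differences from control were among them. AT5G41280 read 7.65, 7.47 and 7.72 in rlk7-3 controls and 6.56, 6.48 and 6.81 with TOLS2. Its change of −1.0 (SE 0.18, adjusted p = 0.113) stood beside a fall by 1.01 in wild type (adjusted p = 0.00741), and the difference of 0.02 had a 95% interval of −0.53 to 0.57. Its direct neighbour AT5G41290 was lower by 1.06 in rlk7-3 and by 1.01 in wild type, uncalled in both (adjusted p = 0.255 and 0.0553). AT5G41300, next along the chromosome, showed −0.61 and −0.84, also uncalled, with overlapping rlk7-3 arrays. For AT5G41280 and AT5G41290 the control and TOLS2 arrays were apart in rlk7-3 and in wild type.

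AT4G27850 read 8.65, 8.69 and 9.02 in rlk7-3 controls and 7.93, 8.09 and 8.03 with TOLS2. This was −0.77 with no overlap (adjusted p = 0.0835), beside called falls by 0.96 in wild type and 0.66 in arrays labelled puchi-2. The steepest changes were in dimmer rows with wide spread. AT3G60470 read 6.22, 6.35 and 7.60 and then 5.06, 4.46 and 4.85, a change of −1.94 (SE 0.38, adjusted p = 0.135). Control replicate 3 was the highest, and the change was −1.50 without it. Wild type showed −1.07, which was not called. Without the replicate 1 arrays the rlk7-3 changes of AT5G41280, AT4G27850 and AT3G60470 were −0.95, −0.80 and −2.32.

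A run of genes numbered AT1G15610 to AT1G15640 also lay lower. AT1G15610 read 5.83, 5.81 and 6.39 in rlk7-3 controls and 4.35, 4.14 and 4.74 with TOLS2, a change of −1.60 (adjusted p = 0.271) beside −1.55 in wild type (adjusted p = 0.0725). AT1G15620 showed −0.71, AT1G15630 −0.78 (adjusted p = 0.0987) and AT1G15640 −0.41, where the rlk7-3 arrays overlapped. AT1G15630 and AT1G15640 fell in wild type by 0.58 and 0.80, while AT1G15620 showed −0.06 there and −0.05 in arrays labelled puchi-2. The mean control level of AT1G15620 was 3.70 in rlk7-3 and 2.89 in wild type, a difference that was not called. Neighbouring genes can be near-identical copies whose probes share signal, so these values are uncertain as separate measurements. Among the described genes defined below, 9 pairs were direct neighbours, 5 with both higher and 3 with both lower. Of these 298 genes 260 were higher. The number of pairs to be expected among so many genes was not worked out, so this count is a description.

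The other 6 of the 10 largest falls were not called in rlk7-3. AT3G45720 (−1.20 in rlk7-3, −0.67 in wild type), AT3G46190 (−1.08 and −0.63), AT1G52120 (−0.99 and −0.98) and AT4G10860 (−0.91 and −0.95) had wild-type arrays that did not overlap, though none was called there. AT4G10860 fell in arrays labelled puchi-2 by 1.28 (adjusted p = 0.0267). AT4G15670 (−0.81 and −0.09) and AT5G22555 (−0.80 and −0.45) had overlapping wild-type arrays.

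**Figure D2:**
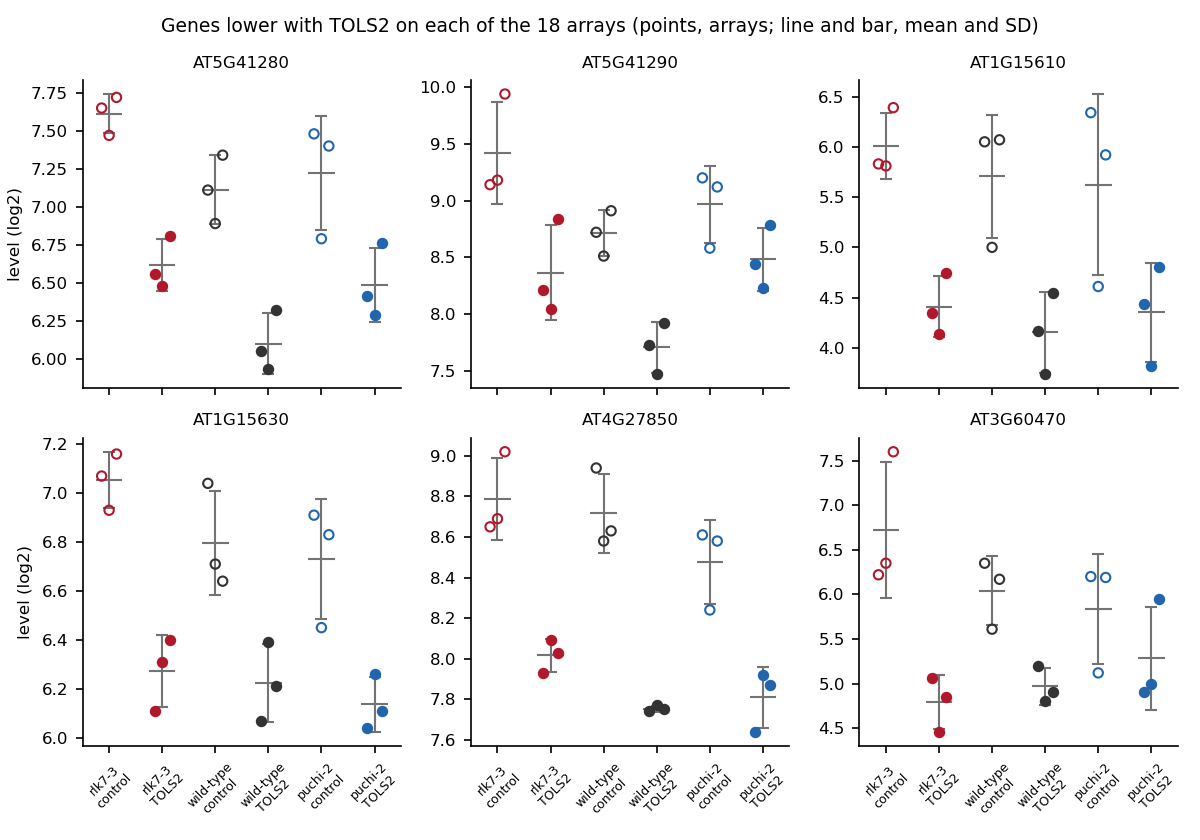
Level (log2) of 6 genes that were lower with TOLS2, on each of the 18 arrays, with open points for control, filled points for TOLS2, and mean and SD over 3 arrays in grey. The 3 TOLS2 arrays lie below the 3 control arrays in rlk7-3 for every gene shown, and AT5G41280 changes by −1.0 in rlk7-3 and −1.01 in wild type.

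To describe what lies below the threshold, genes were taken whose rlk7-3 arrays did not overlap and whose unadjusted p was under 0.01. This held for 319 tested rows (1.82%), 277 higher (1.58%) and 42 lower (0.24%). They stand for 298 genes, 260 higher and 38 lower. None but GSTU25 was called in rlk7-3, so the set is a description. At the rule's edge, AT1G63520 (change −0.22) lay just inside with limma's unadjusted value of 0.009988, and AT1G60610 (0.26) just outside with 0.01002. The excess of higher genes depended on the scaling: after renewed quantile normalization 129 were higher and 88 lower, and after centring 143 and 79, with 165 and 179 genes shared with the 298. Without the replicate 1 arrays 179 were higher and 74 lower.

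**Figure D3:**
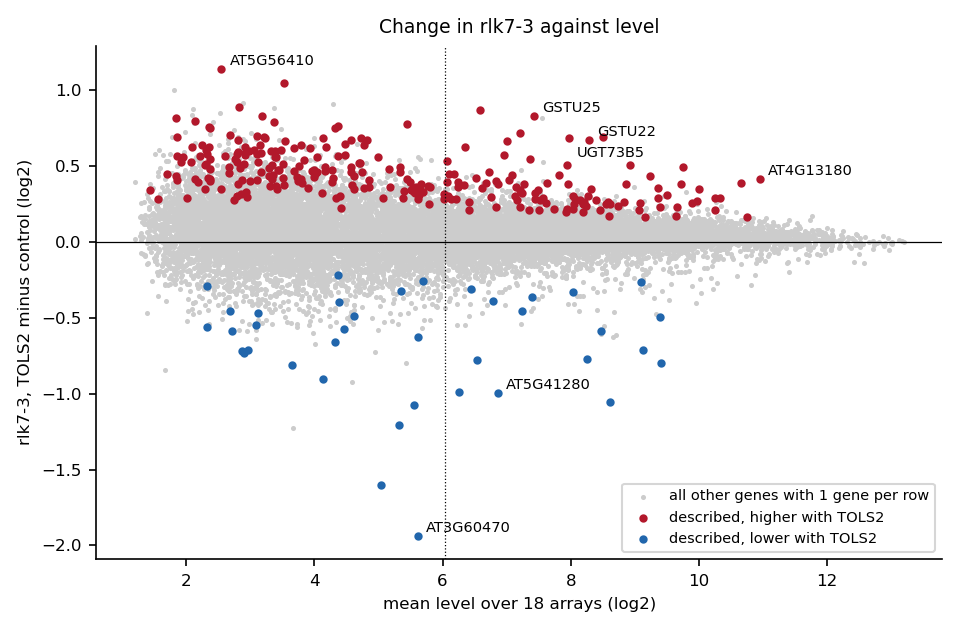
Change in rlk7-3 (TOLS2 minus control, log2) against the mean level over 18 arrays (log2), one point per gene, with described genes in red (higher) and blue (lower). The dotted line is the median row level of 6.03, and most red points lie to its left, among dim rows.

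Whether these genes responded in other genotypes was tested in wild type and in arrays labelled puchi-2. Those arrays had no part in the rlk7-3 changes, but they entered the estimate of each row's spread behind the p that chose the genes. Counts are given apart for genes brighter and dimmer than the median row (6.03). Of the 97 brighter genes that were higher in rlk7-3, 25 (25.8%) were called higher in wild type, where 1.57% of brighter rows were. In arrays labelled puchi-2, 21 (21.6%) were called higher, beside 1.21% of brighter rows, and 20 were called in both. Over all rows, 1.6% were called in arrays labelled puchi-2 (0.898% higher, 0.698% lower). Of the 15 brighter genes that were lower, 6 (40.0%) were called lower in wild type beside 1.02% of brighter rows, and 4 (26.7%) in arrays labelled puchi-2 beside 1.05%. The 6 were AT5G41280, AT4G27850, AT1G15630, AT5G62330, AT3G46270 and XTH33, a xyloglucan-modifying wall enzyme (−0.36 in rlk7-3, −0.94 in wild type).

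Of 163 dimmer genes that were higher in rlk7-3, 3 (1.84%) were called higher in wild type, beside 0.732% of dimmer rows, and 2 (1.23%) in arrays labelled puchi-2, beside 0.583%. Their median change was 0.48 in rlk7-3 and −0.06 in wild type, and 71 of 163 had a positive wild-type change. Of 23 that were lower, 0 were called lower in wild type, beside 0.355% of dimmer rows, and 1 (4.35%) in arrays labelled puchi-2, beside 0.343%. Their median change was −0.58 in rlk7-3 and −0.19 in wild type, and 18 of 23 had a negative wild-type change. Between the control arrays of rlk7-3 and wild type 9 rows were called (0.0515%), none of them a described gene. The change had a median 95% half-width of 0.354 in dimmer rows and 0.186 in brighter rows.

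The share of 25.8% for brighter rises was 41.7% (20 of 48) after renewed quantile normalization, 44.4% (20 of 45) after centring and 26.4% (14 of 53) without the replicate 1 arrays. It lay within 16.5% to 29.9% when single arrays were left out, the lowest without wild-type control replicate 2, and was 17% without rlk7-3 TOLS2 replicate 2. With the spread taken only from the groups compared, 10 of 42 (23.8%) were called in wild type.

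**Figure D4:**
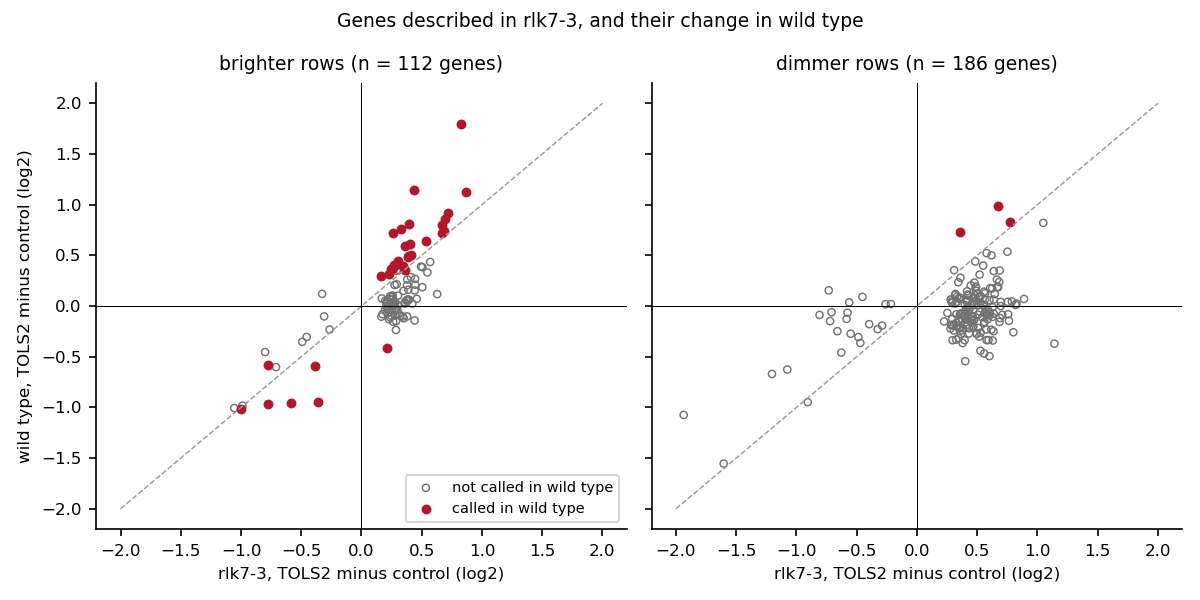
Change in wild type against change in rlk7-3 (TOLS2 minus control, log2) for the 298 described genes, in brighter rows (left, 112 genes) and dimmer rows (right, 186 genes), with genes called in wild type filled red and the dashed line marking equal change. Of the genes higher in rlk7-3, 25 of 97 brighter and 3 of 163 dimmer ones are called higher in wild type.

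Among the 14 largest rises, most of those in dimmer rows had no like change in wild type. AT5G56410 read 2.37, 1.82 and 1.98 in rlk7-3 controls and 3.25, 3.44 and 2.91 with TOLS2, a change of 1.14 (adjusted p = 0.143). Wild type showed −0.37 without overlap, and the difference of 1.51 was not called (adjusted p = 0.0638). AT1G21835 read 2.69, 2.44 and 2.48 and then 3.47, 3.41 and 3.39 (change 0.89, adjusted p = 0.1), beside 0.07 in wild type. AT2G16220, AT3G11860, AT1G57565, AT4G11930, AT3G14670, AT4G26483 and AT5G11410 were higher by 0.75 to 0.83 in rlk7-3 and lay between −0.26 and 0.04 in wild type, none called. Exceptions were AT2G38823, described above and called in wild type, and AT3G54530 (1.05 in rlk7-3, 0.82 in wild type) and AT1G76600 (0.75 and 0.54), whose arrays did not overlap in either genotype, though neither was called. AT5G56410, AT1G21835 and the 7 loci had mean levels of 1.84 to 4.37, on arrays whose values ran from 0.38 to 13.98.

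Most genes called in wild type had under 50% of that change in rlk7-3, or the opposite sign. In wild type 321 rows were called (1.84%). Of the 310 genes they stand for, 34 (11.0%) had over 50% of their wild-type change in rlk7-3, in the same direction, 25 of 193 higher and 9 of 117 lower. The wild-type values that chose the 310 genes are also the base of the share, which favours small shares. Of the 34, 29 were brighter than the median row, and 2 changed over 2-fold in wild type, AT5G51440 and AT5G41280. GSTU22 (93.9%), UGT73B5 (92.8%), UGT73B3 (83.0%) and UGT73B4 (78.9%) were among them, and so were AT4G24160 (0.36 in both genotypes), AT2G33710 (85.8%) and AT5G62330 (61.2%). The 34 include genes whose rlk7-3 change was not called, and the count was 17 to 20 without any 1 of 5 wild-type arrays (control replicates 1, 2 and 3 and TOLS2 replicates 2 and 3) and 18 of 248 without the replicate 1 arrays.

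The 69 rows called with wild-type rises of 2-fold or more had a mean level of 5.46 ± 0.11 on rlk7-3 control arrays and 5.56 ± 0.12 with TOLS2 (SD, n = 3). The change of 0.09 compares with 1.67 in wild type and was within the spread of arrays (exact two-sided permutation test, p = 0.2, where 0.1 is the smallest possible). The 10 rows that fell 2-fold or more in wild type read 7.31 ± 0.07 and then 7.14 ± 0.09 in rlk7-3 (exact permutation p = 0.1), beside −1.14 in wild type. By gene, 40 of 66 that changed at least 2-fold upward kept under 10% of the change, and the rlk7-3 response was called different from wild type for 33. The wild-type values also chose these rows and genes, which favours large wild-type changes, small shares and called differences. Over all rows 67 (0.383%) were called different, 48 of them with a lower value in rlk7-3 (0.275%).

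Lateral root and peroxidase genes with large wild-type rises had no called change in rlk7-3. PUCHI read 4.39, 4.21 and 4.22 in rlk7-3 controls and 4.59, 4.43 and 4.28 with TOLS2 (change 0.16, 95% interval −0.16 to 0.48), and rose by 1.96 in wild type. LBD16, a LOB-domain regulator of lateral root initiation, showed 0.05 in rlk7-3 (95% interval −0.14 to 0.23) and 1.12 in wild type. For both the difference was called (−1.80 and −1.08, adjusted p = 0.00083 and 0.000425). The PUCHI difference was −1.88 without the replicate 1 arrays and missed the threshold (adjusted p = 0.0504). Of 4 lateral root genes none had an unadjusted p under 0.05 in rlk7-3 in the main fit. After quantile normalization, after centring and without the replicate 1 arrays, 1 of the 4 was lower at that p. Over all genes 2.44%, 1.96% and 1.76% were lower in these settings.

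Of 8 class III peroxidase genes matched by symbol or synonym, which are a part of the family, 3 rose in wild type (1.15% of all rows rose and 0.686% fell). None of the 8 reached an unadjusted p of 0.05 in rlk7-3. PRX52, which takes part in lignin formation, showed 0.29 in rlk7-3 with overlapping arrays against 4.11 in wild type. Prx37 showed 0.11 against 0.80. Both differences were called (−3.82 and −0.69, adjusted p = 1.84e-05 and 0.0357).

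Other functions were counted at an unadjusted p under 0.05, beside 6.17% higher and 1.06% lower. Over all genes these shares became 2.86% and 2.44% after quantile normalization and 3.26% and 1.96% after centring. Without the replicate 1 arrays they were 4.0% and 1.76%. Of 88 wall genes (among them expansins, xyloglucan enzymes and endoglucanases), 4 were higher and 2 lower in rlk7-3. In wild type 2 rose and 7 fell, beside 1.15% and 0.686% of all rows. The 2 lower genes, XTH33 and the endoglucanase GH9B17 (−0.45), also fell in wild type. After quantile normalization 2 wall genes were higher and 3 lower in rlk7-3. The counts were 3 and 3 after centring, and 1 and 4 without the replicate 1 arrays. Of 85 defensin-like genes, 7 were higher (8.24%), all dimmer. The count was 2 (2.35%) after quantile normalization, 5 (5.88%) after centring and 3 (3.53%) without the replicate 1 arrays, settings in which the all-gene share higher was also smaller. Of 26 cytochrome P450 genes 2 were higher, against 0 after either rescaling and 3 without the replicate 1 arrays, where 2 were lower. Of 36 genes for secreted signalling peptides 2 were higher and 1 lower, the rapid alkalinization factors RALFL27, RALFL25 and RALFL26.

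In smaller lists, 4 of 17 nutrient transporters were higher: AT3G25280 (0.63), AT1G27040 (0.50), the nitrate transporter gene NRT2.5 (0.47) and AT1G68570 (0.26), all dimmer and none called in wild type. Of 7 WRKY genes, WRKY42 (0.63) and WRKY6 (0.29), which are known to act on phosphate transfer to the shoot, had an unadjusted p under 0.05. Their arrays did not overlap in rlk7-3, and wild type showed 0.12 and 0.21, uncalled. Of the 6 heat genes matched by symbol or synonym, ATHSP22.0 (0.53) and CLPB2 (0.39) were higher, both dim. Of 21 auxin response genes GH3.4 (0.56) was higher and WES1, an auxin-conjugating GH3 enzyme, lower (−0.26). After quantile normalization 0 of the 21 were higher and 2 lower. The counts were 1 and 2 after centring, and 2 and 3 without the replicate 1 arrays. Of 25 bZIP genes bZIP58 was higher (0.22). Of 16 redox genes MSRB3, a methionine sulfoxide reductase, was higher (0.19). Both of these lists had 0 genes at that p after either rescaling. Of 15 ubiquitin ligase genes PUB19 was lower (−0.42). The list of aldehyde, alcohol and aldo-keto oxidoreductases (8) and the calmodulin-like list (7) had no gene at that p. All 8 measured members of the former were aldehyde dehydrogenases, so its other classes were not examined. CEG, the 1 F-box gene listed, was higher (0.60), and the other lists of 1 to 4 measured genes had none, markers aside. With so few genes matched by symbol or synonym, these lists do not stand for their families.

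**Figure D5:**
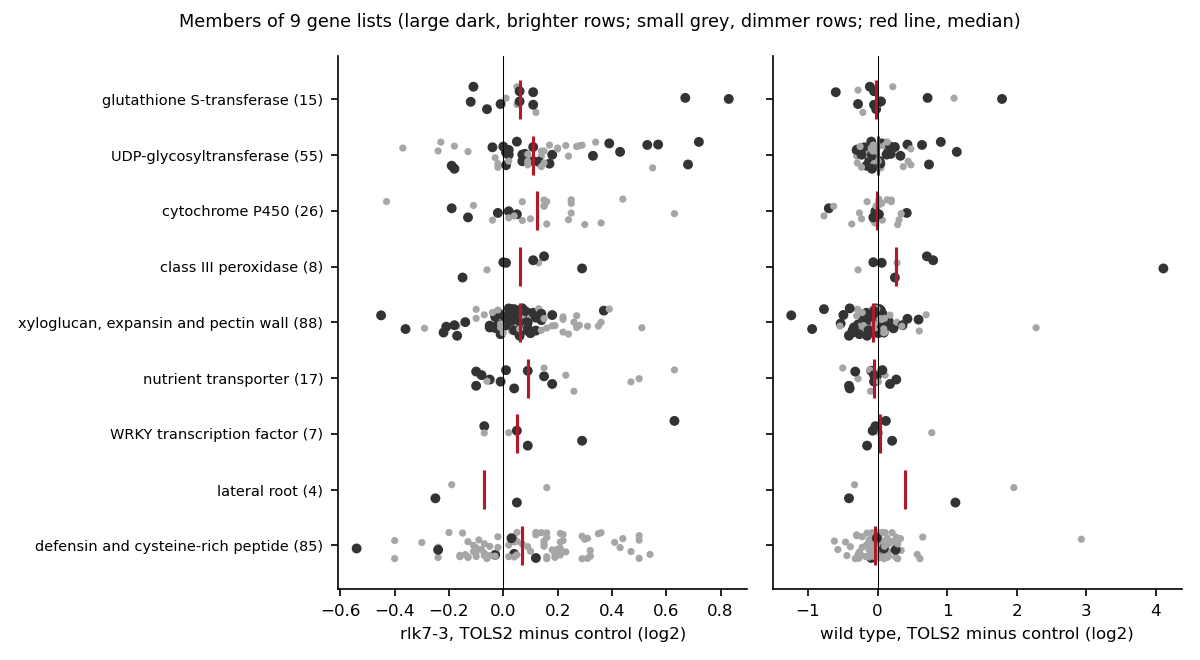
Change with TOLS2 (log2) of each measured member of 9 gene lists in rlk7-3 (left) and wild type (right), with large dark points for brighter rows, small grey points for dimmer rows and a red line at the list's median. In rlk7-3 the glutathione transferase points lie between −0.12 and 0.12 except for GSTU22 and GSTU25, and the lateral root and peroxidase members that rise in wild type lie near 0.

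No marker of a cell type was called in rlk7-3. The root hair expansins EXPA7 and EXPA18 both showed 0.09. Of 4 meristem and niche genes, the changes were 0.12 for AUR1, 0.24 for BBM, 0.01 for AGL42 and −0.15 for AUR2. At an unadjusted p under 0.05, 1 of the 4 was higher, beside 6.17% of all genes. After either rescaling 0 were higher and 1 lower at that p, and without the replicate 1 arrays there were 0. The shoot genes RCA and LHCB4.2, whose signal in root tips fell in wild type by 0.65 and 1.00, showed 0.03 and −0.05 in rlk7-3. Lists for root cap, endodermis, xylem and phloem had no measured member, and the part of cell makeup in the changes above was not tested.

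Of the rows called different, 19 (0.109%) had a more positive change in rlk7-3. The largest named were AT5G19970 (difference 1.20, adjusted p = 0.000512), AT3G45080 (1.09), bZIP58 (1.03), AT4G10540 (1.01), AT2G18480 (0.94) and AT5G54990 (0.87). AT5G19970 read 7.3, 7.47 and 7.32 and then 7.61, 7.46 and 7.52 in rlk7-3, with overlap, while wild type fell by 1.03. AT3G45080 showed −0.04 in rlk7-3 and fell by 1.12 in wild type. In AT4G10540 and AT2G18480, dim rows, the rlk7-3 arrays lay 0.34 and 0.40 higher with no overlap. Without the replicate 1 arrays, only bZIP58 of these 6 kept its call (adjusted p = 0.0471).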

How the data were processed

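The deposited table holds log2 expression levels, made by the authors with RMA from single-colour arrays, per the submitters' processing notes; which version, probe definition and build were used is not given here. RMA normalizes between arrays and so can reduce a shift shared by most genes; a median change of 0.06 over all tested rows remained in rlk7-3. Of 38408 rows, 16722 had 1 gene in the platform table, 759 several and 20927 none (54.5%); 16670 of the 1-gene rows matched a RefSeq table of assembly TAIR10.1, used for names and gene order only. Values were used as deposited. Groups came from the sample titles. R 4.3.3 with limma 3.58.1 (lmFit, eBayes) fitted 6 group means over 18 arrays, with 12 residual degrees of freedom, and Benjamini-Hochberg adjustment ran over 17481 rows; a call is an adjusted p under 0.05, two-sided, and a row with several genes was never named. Each SD rests on the 3 arrays of its group. The SE and interval of a change use the spread of the row from the fit over all 18 arrays, not from the groups compared alone. Having 3 arrays a group limits precision. The fits were tested on simulated data. Alternatives were renewed quantile normalization, centring, an intensity trend with robust prior, array weights, a replicate block, other row filters and omitted arrays.

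Named genes are those called in rlk7-3 with or without the replicate block, the 14 largest rises and 10 largest falls among genes with an unadjusted p under 0.01 and no overlap, up to 4 members of each list, RLK7, PUCHI and LBD16, and the 6 largest called positive differences from wild type; AT1G15620, AT1G15630, AT1G15640, AT5G41300, AT5G62330, AT3G46270, AT4G24160, AT2G33710, UGT73B1, UGT73B4, UGT87A2, the other GSTU genes, UGT73C6, UGT78D3, GT72B1, GH9B17, AT1G63520 and AT1G60610 were named after their values were seen. The up to 4 members of a list were those with the smallest unadjusted p in rlk7-3, so they were picked on the outcome. Of 37 lists, 30 had measured members (460 genes). Members were found by symbol or synonym, so genes without a matching one did not enter. The members and lists were chosen with earlier results of these data known. Promoter motifs were planned and not analysed here.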

Additional observations from a re-analysis of the deposited data

Results flagged for a closer look

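For 11 named genes the TOLS2 response in rlk7-3 differed from that in wild type by limma's interaction test (adjusted p under 0.05). A smaller response in rlk7-3 was found for 5, PRX52 (difference −3.82 on the log2 scale), PUCHI (−1.80), LBD16 (−1.08), GSTU25 (−0.97) and Prx37 (−0.69). A more positive change in rlk7-3 was found for 6, AT5G19970 (1.20), AT3G45080 (1.09), bZIP58 (1.03), AT4G10540 (1.01), AT2G18480 (0.94) and AT5G54990 (0.87). GSTU25 is the one among them that was also called within rlk7-3.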

How the results depend on the processing

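The count of calls in rlk7-3, 1 as reported, was 0 after renewed quantile normalization, after centring and from the 6 rlk7-3 arrays alone, 4 with array weights, 7 over all rows of the table, 10 over brighter rows, 11 with an intensity trend and robust prior, and 0 to 4 with arrays left out. With the replicate block it was 16 (11 higher, 5 lower); same-numbered rlk7-3 control and TOLS2 arrays correlated by 0.033 to 0.267 in their deviations from group means, and not every array correlated best with its own number, so the numbers were not taken to pair the samples. Over all groups same-numbered arrays correlated by −0.067 to 0.348 and others by −0.226 to 0.125. Replicate 1 arrays also stood apart on the second principal component in each group. Deviations were thus partly shared by replicate number, and the main fit leaves that part in the spread. The block includes GSTU22 (adjusted p = 0.0454), UGT73B5 (0.0454), AT4G13180 (0.0454), AT5G14730 (0.0454), AT5G41280 (0.00231), AT5G41290 (0.0161), AT4G27850 (0.0499), AT3G60470 (0.0454) and AT1G15610 (0.0454), and, also at 0.0454, AT1G21835, AT5G61820, AT3G44190, AT5G51500 and AT3G54570. Calls in wild type (321) numbered 576 with array weights, 526 over all rows, 174 from its own arrays and 179 to 308 with arrays left out. Calls in arrays labelled puchi-2 (279) numbered 448 with the trend and also over brighter rows, 556 with weights, 487 with the block, 443 over all rows, 39 from their own arrays, 131 to 208 with 1 array left out and 114 without replicate 1 of all groups. Differences between rlk7-3 and wild-type responses (67) numbered 101 with weights, 37 to 56 with 1 array left out and 28 without replicate 1 of all groups. Differences between rlk7-3 and wild-type controls (9) numbered 19 with the trend, 18 with the block, 20 over brighter rows, 15 over all rows, 2 from the groups compared and 1 to 6 with arrays left out. The share of brighter rlk7-3 rises called in wild type (25.8%) was 41.7% after quantile normalization, 44.4% after centring, 10.8% over all levels and 16.5% to 29.9% with arrays left out. The 34 wild-type calls with over 50% of their change in rlk7-3 became 53 with the trend, 58 with weights, 54 with the block, 17 from the groups compared and 17 to 43 with arrays left out. The 298 described genes became 166 over brighter rows and 253 to 408 with arrays left out. The shares and the counts of kept and described genes were recomputed by a choice made after seeing the data. No called result changed sign under these alternatives. Among 33 named genes in rlk7-3, 464 of 509 gene and setting combinations stayed on their side of the threshold, 36 became calls and 9, all of GSTU25, lost one. Apart from fewer arrays or rows, the cause of these moves was not tested. With 3 arrays a group, the 95% interval of a change in rlk7-3 had a median half-width of 0.266 over rows.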
